A study of Homo sapiens with 6 samples.

Results

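Cytochrome P450 (CYP) and UDP-glucuronosyltransferase (UGT) genes made up 68 of the 20664 target symbols of a pooled knockout screen. They were chosen by name, as symbols that read CYP, digits, a letter and digits, without CYP51A1, or that start with UGT1A, UGT2A, UGT2B or UGT3A. The set held 54 CYP and 14 UGT genes, covered by 362 of the 106244 sgRNAs with a target. CYP1A1, CYP1A2, CYP1B1, CYP3A4 and CYP3A5 formed the erlotinib-metabolizing group and were set against the other 63 members. The screen was run in MDA-MB-231, a human triple-negative breast cancer line, made to express Cas9 from a stable lentiviral insertion, and sought markers of resistance to EGFR inhibitors. Both groups carried the same GeCKO v2 sgRNA library, introduced at a multiplicity of infection of 0.3 and selected in puromycin at 1 µg/mL over 7 days. The control group of 3 libraries then spent 7 days in DMSO, and the treated group of 3 libraries spent 7 days in erlotinib, an EGFR kinase inhibitor, at 10 µM. An sgRNA guides Cas9 to cut a gene, so its read count in a library follows the number of surviving cells in which that gene was targeted and not the expression of the gene.

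P450 enzymes are heme proteins that insert oxygen into drugs, steroids, bile acids, fatty acids and vitamins, with electrons passed on from partner proteins. UGT enzymes attach a sugar, most often glucuronic acid, to the products or to the drug itself, which makes them easier to excrete. Both families are known best from liver and intestine, where CYP3A4 and CYP1A2 clear much of an oral erlotinib dose, and the aryl hydrocarbon receptor can induce CYP1A1 and CYP1B1 in other tissues.

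The library totals were 1574743 to 4263494 counts in DMSO and 1773235 to 3332895 counts in erlotinib, and a count of 0 allows up to 3 counts, which was 0.900 to 1.69 CPM (counts scaled to a library total of 1000000) in the erlotinib libraries. These limits cover counting error only, because reads of PCR products that carry no molecular identifiers do not count single molecules. The 2 conditions were amplified with different reverse primers, so condition and reverse primer cannot be told apart. Nothing in the labels says that the 3 libraries of a group came from separate cultures, so p-values measure the spread between these libraries, which may be technical. The counts hold no expression values, so the cell line could not be checked against marker genes. MDA-MB-231 is named in the protocol text of the labels, whose cell line field reads ERL.

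Most member sgRNAs found in DMSO had no count in erlotinib. Of the 362 member sgRNAs, DMSO replicates 1 to 3 held 41.7%, 37.0% and 39.0% with at least 1 count, whereas erlotinib replicates 1 to 3 held 3.59%, 2.21% and 3.59%. The groups did not overlap, and the means were 39.2% ± 2.36 (SD, n = 3) and 3.13% ± 0.797 (SD, n = 3), which is 12.5-fold fewer in erlotinib. Over all sgRNAs with a target the means were 35.7% ± 3.01 (SD, n = 3) and 1.95% ± 0.156 (SD, n = 3), or 18.3-fold fewer. Each erlotinib library held a larger share of the members than of all targets, and in replicate 2 this difference was between 2.21% and 1.77%. In DMSO 38.4% ± 1.73 (SD, n = 3) of the CYP sgRNAs and 42.9% ± 6.12 (SD, n = 3) of the UGT sgRNAs were found, and in erlotinib 2.82% ± 0.390 (SD, n = 3) and 4.55% ± 2.62 (SD, n = 3). In any library, 263 of the 362 member sgRNAs had a count (72.7%, against 70.2% of all sgRNAs with a target).

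**Figure D1:**
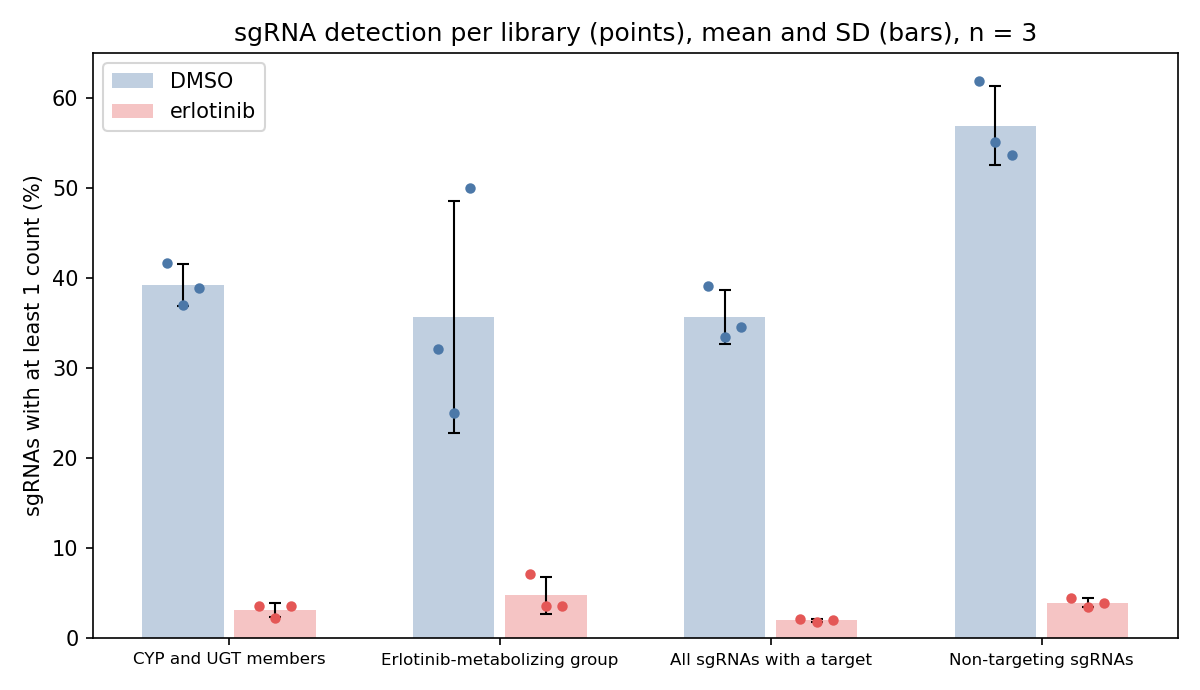
The y axis gives the percentage of listed sgRNAs with at least 1 count, for the 68 CYP and UGT genes, the 5 genes of the erlotinib-metabolizing group, all sgRNAs with a target and the non-targeting sgRNAs. Points are libraries, bars are means and whiskers are SDs (n = 3), and in every set the 3 erlotinib points lie below the 3 DMSO points.

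Among the 257 member sgRNAs found in DMSO, 127 had a count in a single library, 91 in 2 libraries and 39 in each library. Those 39 were 15.2% of the 257, and over all targets this share was 10.9%. Of these 257, 233 (90.7%) were at 0 in every erlotinib library, against 94.0% over all targets. As a share of all counts, the members' sgRNAs came to 0.409%, 0.396% and 0.425% for DMSO replicates 1 to 3, and to 0.215%, 0.516% and 1.15% for the erlotinib replicates. The DMSO shares lay close together, while the erlotinib shares spread over several-fold, with 1 sgRNA of UGT2A1 holding 0.977% of the counts of erlotinib replicate 3.

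The erlotinib-metabolizing group is the part of the set that acts on the drug of the screen, and its sgRNAs are shown so that each count can be tied to a targeting sequence. The 20 that had a count in any library follow, 5′ to 3′ as listed and all in lower case.
CYP1A1 sgRNA a: cagatcccatctgccctata
CYP1A1 sgRNA b: caggatgaaggcctccatat
CYP1A1 sgRNA c: ggttcatcaccaaatacatg
CYP1A1 sgRNA d: tctcctgacagtgctcaatc
CYP1A2 sgRNA a: cacaaggtacatgaggctcc
CYP1A2 sgRNA b: cagcggcaacctcatcccac
CYP1A2 sgRNA c: gctgtgtcttcgtaaaccag
CYP1A2 sgRNA d: tgaccaagcctgagatacag
CYP1B1 sgRNA a: actgatcggaaacgcggcgg
CYP1B1 sgRNA b: ggttgagctgctcgaattcg
CYP1B1 sgRNA c: tcacctctcgttcgctcgcc
CYP1B1 sgRNA d: tccttgtccaagaatcgagc
CYP1B1 sgRNA e: tgcgcccgaactcttcgttg
CYP3A4 sgRNA a: catggaaacctggcttctcc
CYP3A4 sgRNA b: ctcacagatagaggagcacc
CYP3A4 sgRNA c: gacaaaatatttcccaaaaa
CYP3A4 sgRNA d: gatggctctcatcccagact
CYP3A5 sgRNA a: gatggacctcatcccaaatt
CYP3A5 sgRNA b: gcccacacctctgcctttgt
CYP3A5 sgRNA c: tccccacacagaacgtatga
The remaining 8 of the group's 28 sgRNAs had 0 counts in every library.

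In DMSO, 32.1%, 25.0% and 50.0% of the group's 28 sgRNAs had a count in replicates 1 to 3, and in erlotinib 7.14%, 3.57% and 3.57% did. The means were 35.7% ± 12.9 (SD, n = 3) and 4.76% ± 2.06 (SD, n = 3), and those of the other members were 39.5% ± 2.59 (SD, n = 3) and 2.99% ± 0.792 (SD, n = 3). The group's DMSO libraries lay on both sides of the other members' mean, and with 28 sgRNAs a single sgRNA moved a library's share by 3.57 percentage points. In erlotinib the group's share was above that of the other members in replicate 1, at 7.14% against 3.29%, and in replicate 2, at 3.57% against 2.10%, but not in replicate 3, at 3.57% against 3.59%. With 3 libraries against 3, no exact permutation test over libraries can go below p = 0.1.

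CYP1A1, which oxidizes aromatic hydrocarbons and erlotinib, had 605, 176 and 207 counts summed over its 5 sgRNAs for DMSO replicates 1 to 3, in that order here and throughout, and 0 in each erlotinib library. It was the second most abundant member of the control libraries, at 118 ± 33.3 CPM (SD, n = 3), and was at least 86.7-fold lower in erlotinib (adjusted p = 0.00503), a bound taken against 3 counts in each erlotinib library. All gene-level p-values come from edgeR's quasi-likelihood test on counts summed per gene, adjusted by Benjamini-Hochberg over 20409 symbols. Of its sgRNAs, a and c had counts in all 3 DMSO libraries, and sgRNA b was found in DMSO replicate 3 alone, with 82 counts.

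CYP1A2, a liver enzyme that oxidizes caffeine and erlotinib, had 330, 121 and 22 counts in DMSO and 15, 0 and 0 in erlotinib. The lowest DMSO library stood above the highest erlotinib library, at 14.0 against 7.40 CPM, and the gene was not called (log2 fold change -5.59 ± 2.24 SE, adjusted p = 0.0616). The 15 counts belonged to sgRNA a, which had 51, 37 and 0 counts in DMSO, and without erlotinib replicate 1 the gene was called lower (adjusted p = 0.00863). It was also called lower with the likelihood ratio test (adjusted p = 0.0294) and DESeq2's Wald test (adjusted p = 0.0159), with filterByExpr (adjusted p = 0.0446) and with upper-quartile factors on summed counts (adjusted p = 0.0372). With DESeq2's size factors in edgeR its log2 fold change was -0.063 (adjusted p = 0.993).

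CYP1B1, the extrahepatic member that hydroxylates estradiol, had 262, 119 and 239 counts in DMSO and 0, 629 and 74 in erlotinib. The groups overlapped, and the difference was not called (adjusted p = 0.817). Separate sgRNAs held the erlotinib counts. sgRNA a had 629 counts in erlotinib replicate 2 and 0 in every other library, and sgRNA e had 74 counts in erlotinib replicate 3 beside 109, 119 and 181 in DMSO.

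CYP3A4, the main drug-oxidizing enzyme of the liver, had 0, 0 and 248 counts in DMSO and 0 in each erlotinib library. All 4 sgRNAs that were found had their counts in DMSO replicate 3, with 115, 71, 29 and 33 for sgRNAs a to d. The gene was not called (adjusted p = 0.0790), though it was with DESeq2's size factors (adjusted p = 0.0398) or the likelihood ratio test (adjusted p = 0.0462). CYP3A5, the polymorphic relative of CYP3A4, had 77, 70 and 71 counts in DMSO and 161, 0 and 0 in erlotinib. Its single retained sgRNA, b, had 0, 70 and 44 counts in DMSO, and the gene was not called (adjusted p = 0.622) unless erlotinib replicate 1 was left out (adjusted p = 0.0116). The group thus had 1 of 5 genes called lower, where 66.1% of all symbols tested were. At 0 in every erlotinib library were 2 of 5, where 75.6% of all symbols were.

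Over the whole set, 67 genes could be tested and 40 (59.7%) were lower in erlotinib, while 27 were not called and 0 were higher. Over all 20409 symbols tested, 66.1% were called lower and 0.0049% higher, so the members' share of lower calls was near that of the library as a whole. The median log2 fold change was -10.15 for the members and -10.13 for all symbols. At 0 in every erlotinib library were 42 of the 67 (62.7%), against 75.6% of all symbols, and in 38 (56.7%) every DMSO library stood above every erlotinib library, against 56.7% of all symbols. Of the 40 calls, 29 held in each of the 6 fits that left out 1 library, and the same share over all symbols is not given here. The lowest number called in those fits was 32 without DMSO replicate 2 (47.8%, against 58.8% of all symbols). The highest was 43 without erlotinib replicate 1 (64.2%, against 59.2% of all symbols).

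**Figure D2:**
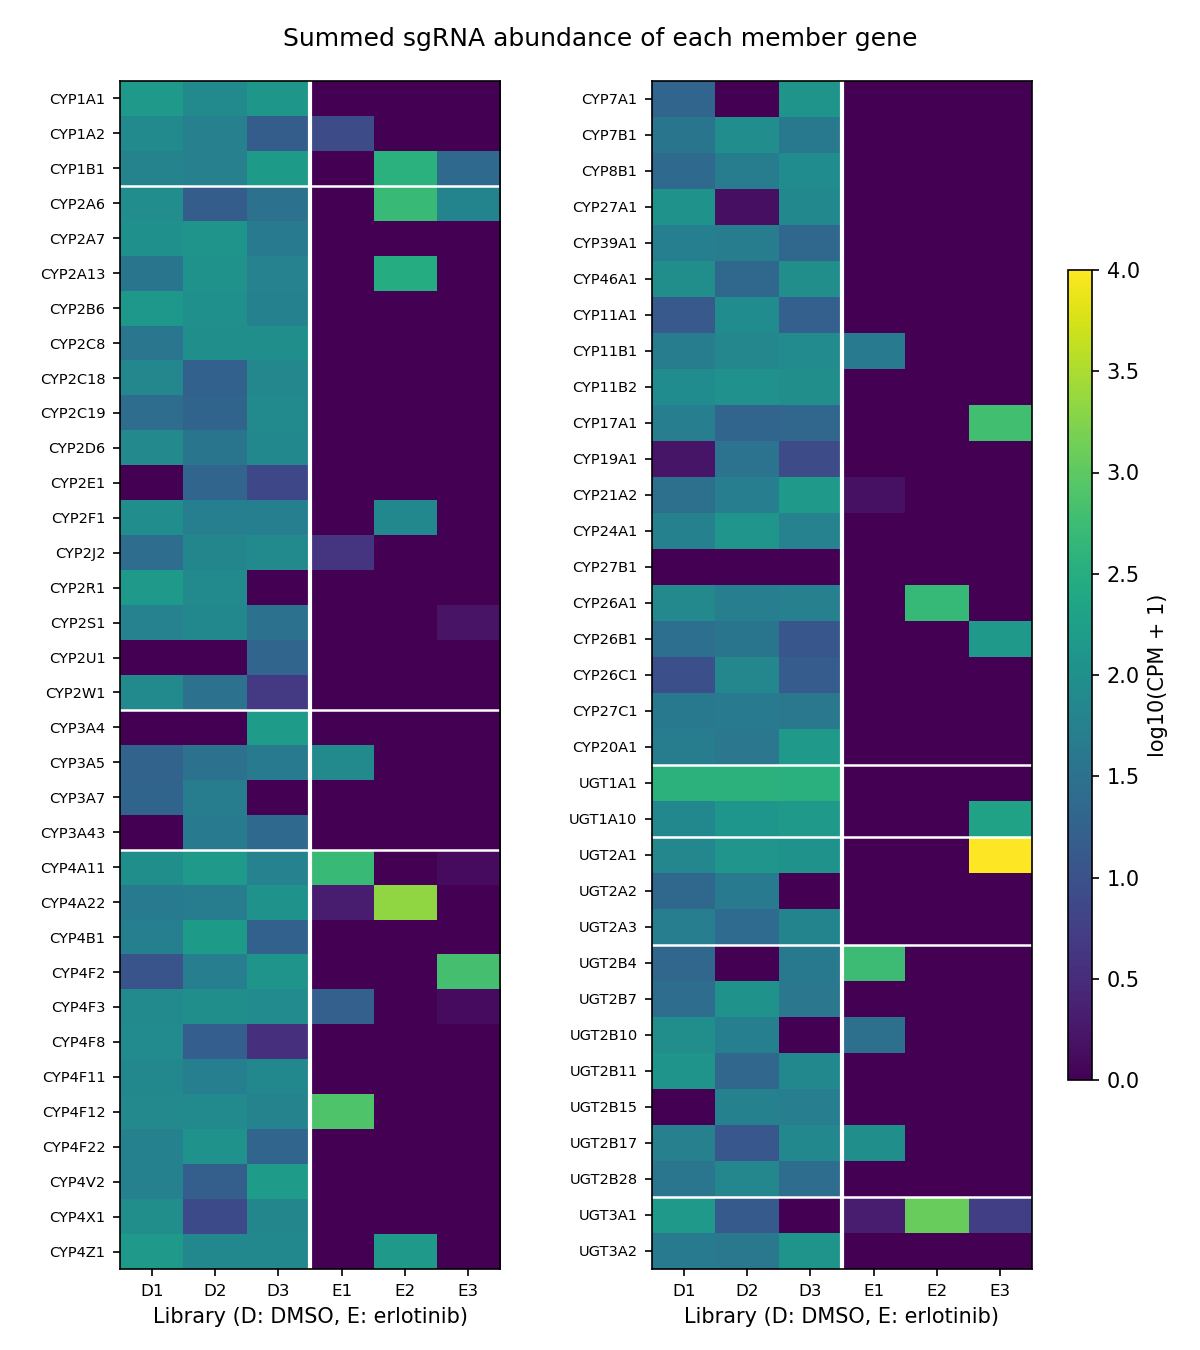
Each row is a gene (1 member is not drawn), each column a library (D1 to D3 for DMSO, E1 to E3 for erlotinib), and colour gives log10 of the CPM summed over the gene's sgRNAs plus 1, with white lines between families. The rows that are darkest in all 3 erlotinib columns had 0 counts there, CYP27B1 is dark in all 6 libraries, and UGT2A1 in E3 is the brightest cell.

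The sgRNAs listed for UGT1A1, which conjugates bilirubin and the active metabolite of irinotecan, made it the most abundant member in DMSO. Whether they also cut other UGT1A genes was not tested, since target coordinates were not available. UGT1A1 ranked 6 among all 20664 symbols in mean DMSO CPM. Its 6 sgRNAs summed to 1607, 810 and 549 counts in DMSO, and to 0 in each erlotinib library. Its DMSO level was 364 ± 14.4 CPM (SD, n = 3), and its bound was the largest of the members, with a fall of at least 268-fold (adjusted p = 0.0216). The call was lost when any 1 DMSO library was left out (adjusted p = 0.0542 to 0.0596). The 5 sgRNAs of UGT1A1 that were found are shown because the level was shared among them.
UGT1A1 sgRNA a: gatggacaatgcaaagcgca
UGT1A1 sgRNA b: gggttccagtgtaccgccac
UGT1A1 sgRNA c: gtgttgttcgcaagattcga
UGT1A1 sgRNA d: tggagtgaccctgaatgttc
UGT1A1 sgRNA e: ttctccagaagcattaatgt
In DMSO replicates 1 to 3, sgRNA a had 222, 236 and 47 counts and sgRNA b had 513, 221 and 277. sgRNA c had 551, 122 and 107 counts, and sgRNA d had 272, 231 and 118. Only sgRNA e was rare, with 49, 0 and 0, so 4 sgRNAs were found in every DMSO library and none was found in erlotinib.

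The genes of glucuronidation followed no single pattern. Of 12 tested, 7 were lower (58.3%, against 66.1% of all symbols), among them UGT1A1, UGT2B7, which conjugates morphine, and UGT2A3. UGT2B7 had 112, 240 and 60 counts in DMSO and 0 in each erlotinib library, at least 42.5-fold lower (adjusted p = 0.00503). Of these calls 3, those of UGT1A1, UGT2A2 and UGT2B15, were lost in fits without 1 library. UGT2A2 had 1 listed sgRNA with 88, 91 and 0 counts in DMSO, and its call (adjusted p = 0.0461) was lost without DMSO replicate 1 or 2 or any erlotinib library (adjusted p = 0.0705 to 0.120), and with library totals or non-targeting totals (adjusted p = 0.0560 and 0.0531). UGT2B15, which conjugates androgens, had 0, 124 and 78, and its call (adjusted p = 0.0408) was lost without DMSO replicate 2 or 3 or any erlotinib library (adjusted p = 0.0596 to 0.107).

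Among the 17 genes of drug and xenobiotic oxidation, 7 were lower (41.2%, against 66.1% of all symbols) and 10 were not called. At 0 in every erlotinib library were 11 (64.7%, against 75.6% of all symbols). CYP2C8, which oxidizes paclitaxel, had 156, 212 and 152 counts in DMSO and 0 in erlotinib, at least 56.3-fold lower (adjusted p = 0.00503). CYP2D6, which oxidizes codeine and tamoxifen, had 316, 77 and 115 counts in DMSO and 0 in erlotinib, at least 44.7-fold lower (adjusted p = 0.00503). In both genes every DMSO library lay above every erlotinib library.

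Other drug-oxidizing genes were rare in DMSO, at 0 in erlotinib and not called. CYP2E1, which oxidizes ethanol, had 0, 43 and 10 counts over 6 sgRNAs (adjusted p = 0.0964), and was called lower with the likelihood ratio test (adjusted p = 0.0200). CYP3A43 had 0, 95 and 35 counts (adjusted p = 0.0532), and was called lower without DMSO replicate 1 (adjusted p = 0.0183) and with TMM factors, DESeq2's size factors, upper-quartile factors on summed counts, counts required in at least 2 libraries, the likelihood ratio test or DESeq2's Wald test (adjusted p = 0.0076 to 0.0489). These genes, CYP3A4 and CYP2U1, a less characterized member with 0, 0 and 30 counts, were among the 5 genes at 0 in every erlotinib library that were not called.

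The CYP3 subfamily stood low in DMSO replicates 1 and 2, and near all targets in replicate 3. Its 21 sgRNAs were found at 14.3%, 23.8% and 33.3% in DMSO replicates 1 to 3, a mean of 23.8% ± 9.52 (SD, n = 3). Over all sgRNAs with a target the shares were 39.1%, 33.4% and 34.5%. None of the 12 CYP3 sgRNAs found in DMSO was found in all 3, where 10.9% of those of all targets were. The 8 sgRNAs of UGT1A1 and UGT1A10 were found at 87.5%, 75.0% and 75.0%, a mean of 79.2% ± 7.22 (SD, n = 3), and 6 of them were found in all 3. The remaining families lay between 33.3% for UGT2B and 50.0% for UGT2A. CYP3A7, the fetal member, was called lower (adjusted p = 0.0444) from 80, 109 and 0 counts in DMSO, and the call was lost without DMSO replicate 1 or 2 or any erlotinib library (adjusted p = 0.0672 to 0.126), and with library totals or non-targeting totals (adjusted p = 0.0539 and 0.0511).

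All 6 genes of bile acid and cholesterol oxidation were lower in erlotinib, and each was at 0 in every erlotinib library, which over all symbols held for 66.1% and 75.6%. CYP7B1, which hydroxylates oxysterols, fell from 150, 201 and 63 counts in DMSO to 0 in erlotinib, at least 40.8-fold (adjusted p = 0.00503). CYP7A1, the rate-limiting enzyme of bile acid synthesis, had 82, 0 and 184 counts and was called lower (adjusted p = 0.0380), a call lost without DMSO replicate 1 or 3 or any erlotinib library (adjusted p = 0.0542 to 0.145). CYP27A1, the mitochondrial sterol hydroxylase, had 470, 1 and 116 counts (adjusted p = 0.0200), and its call was lost without DMSO replicate 1 or 3 (adjusted p = 0.0574 and 0.0595). CYP8B1, CYP39A1 and CYP46A1, the brain cholesterol hydroxylase, kept theirs in all 6 fits.

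Of the 6 steroid hormone genes, 4 were lower, a share (66.7%) near the 66.1% of all symbols. CYP11B2, aldosterone synthase, had 377, 228 and 145 counts in DMSO and 0 in erlotinib, at least 69.7-fold lower (adjusted p = 0.00503). CYP19A1, the aromatase that makes estrogens, had 3, 72 and 12 counts in DMSO and 0 in erlotinib. Its call (adjusted p = 0.0464) was lost without DMSO replicate 2 or 3 or any erlotinib library (adjusted p = 0.0762 to 0.176), and with DESeq2's size factors, library totals or non-targeting totals (adjusted p = 0.0514 to 0.0639). CYP11A1, which cleaves the side chain of cholesterol, was lower (adjusted p = 0.00813) except without DMSO replicate 2 (adjusted p = 0.0525). CYP21A2, a hydroxylase of cortisol and aldosterone synthesis, had 123, 111 and 223 counts in DMSO and 1, 0 and 0 in erlotinib, and was lower (log2 fold change -9.51 ± 1.70 SE, adjusted p = 0.00503), a call lost with DESeq2's size factors (adjusted p = 0.0645).

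CYP11B1, the cortisol-forming hydroxylase, had 209, 152 and 130 counts in DMSO and 87, 0 and 0 in erlotinib. It was not called (adjusted p = 0.229), and without erlotinib replicate 1 it was called lower (adjusted p = 0.00731). CYP17A1, which opens the way to androgens, had 216, 42 and 31 counts in DMSO and 0, 0 and 2082 in erlotinib, and was not called (adjusted p = 0.720).

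The 2 vitamin D genes that were found were at 0 in every erlotinib library and called lower, which over all symbols held for 75.6% and 66.1%. CYP24A1, which inactivates vitamin D, fell from 241, 268 and 92 counts in DMSO to 0 in erlotinib, at least 58.1-fold (adjusted p = 0.00503). CYP2R1, which makes the circulating form of vitamin D, had 605, 176 and 0 counts (adjusted p = 0.0326), and its call was lost without DMSO replicate 1 or 2 (adjusted p = 0.0815 and 0.0677). CYP27B1, which forms active vitamin D, had 0 counts for all 6 of its sgRNAs in all 6 libraries and could not be tested. Of the 10108 symbols with 6 listed sgRNAs, 12 had 0 counts in every DMSO library.

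Of the 4 retinoid genes, CYP26C1 and CYP27C1 were lower (50.0%, against 66.1% of all symbols). CYP27C1, a retinoid desaturase of skin, had 175, 96 and 62 counts in DMSO, at 41.3 ± 2.09 CPM (SD, n = 3), and was at least 30.4-fold lower (adjusted p = 0.00503). CYP26C1 had 36, 156 and 21 counts (adjusted p = 0.0114), and its call was lost without DMSO replicate 2 (adjusted p = 0.0734). CYP26A1 and CYP26B1, which clear retinoic acid, each had counts in 1 erlotinib library and were not called.

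Among the 11 genes of fatty acid and eicosanoid oxidation, 6 were lower (54.5%, against 66.1% of all symbols). CYP4F11 had the smallest gene-level p of the members, with 314, 117 and 115 counts in DMSO and 0 in erlotinib, at least 49.0-fold lower (adjusted p = 0.00503). CYP2J2, which makes epoxides of arachidonic acid, had 111, 148 and 126 counts in DMSO and 6, 0 and 0 in erlotinib, and was lower (log2 fold change -6.95 ± 2.02 SE, adjusted p = 0.0222). With DESeq2's size factors, which differed widely between the erlotinib libraries, this call was lost (log2 fold change -1.43, adjusted p = 0.606). CYP4F8 was lower (adjusted p = 0.0174) except without DMSO replicate 1 (adjusted p = 0.0914). Less characterized members gave 5 of 7 lower (71.4%), with CYP20A1 at 204, 83 and 219 counts in DMSO and 0 in erlotinib, at least 55.1-fold lower (adjusted p = 0.00503). CYP2S1, of the same class, had 248, 163 and 50 counts in DMSO and 0, 0 and 2 in erlotinib, and was lower (adjusted p = 0.00503). UGT3A2, a transferase that uses UDP-glucose and UDP-xylose, had 192, 87 and 182 counts in DMSO and 0 in erlotinib, at least 49.1-fold lower (adjusted p = 0.00503).

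Counts in erlotinib were held by 30 member sgRNAs of 25 genes, in 34 combinations of sgRNA and library. Of these 34, 8 were over 1000 counts and 6 were at 3 counts or fewer (17.6%, against 14.6% over all targets). Of the 30 sgRNAs, 24 had also been found in DMSO (80.0%, against 78.1% over all targets). No member sgRNA had a count in all 3 erlotinib libraries, and 4, those of CYP4A11, CYP4A22, CYP4F3 and UGT3A1, had a count in 2 of them. In each of these 4 the lower count was 3 or fewer, and 0 member sgRNAs had at least 4 counts in more than 1 erlotinib library. Sharing was rare over all targets too, where 498 of the 5672 sgRNAs found in erlotinib had a count in 2 libraries and 15 in all 3. The 3 genes with erlotinib counts that were still called lower, CYP2J2, CYP2S1 and CYP21A2, held 6, 2 and 1 counts.

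**Figure D3:**
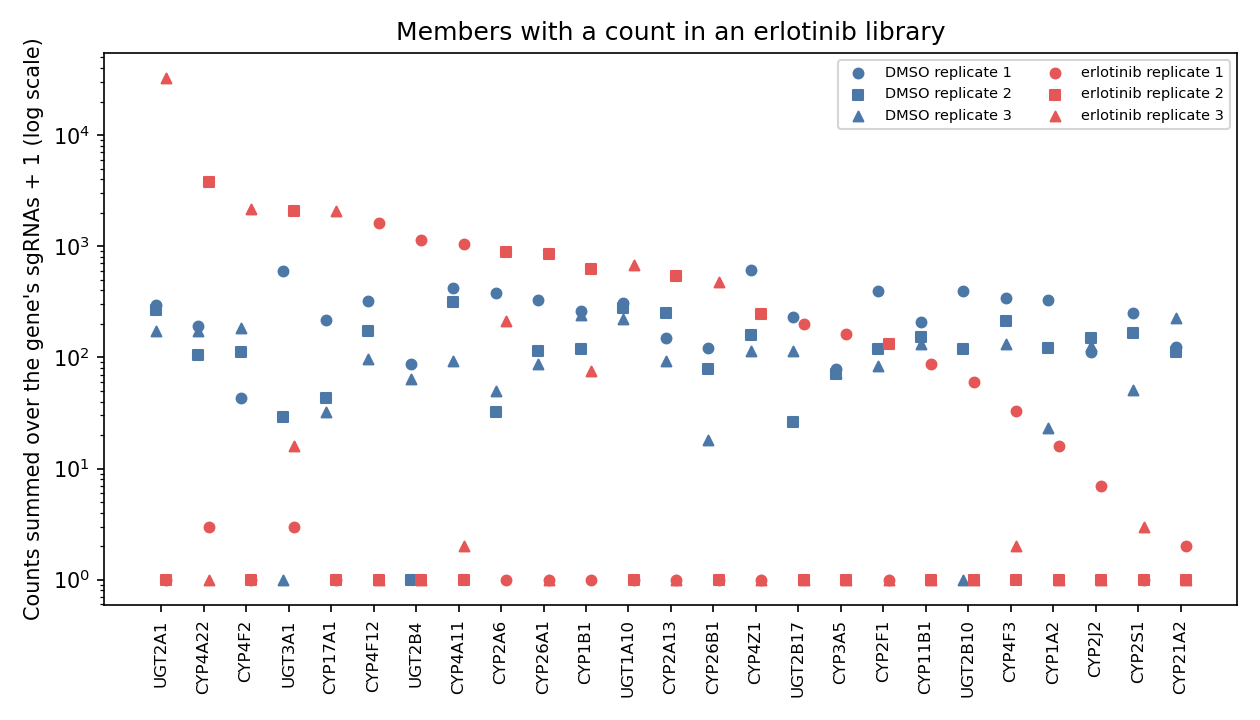
Counts summed over each gene's sgRNAs plus 1 (y axis, log scale) are plotted for the 25 members with a count in any erlotinib library, with blue for DMSO, red for erlotinib and marker shapes for replicates 1 to 3. For most genes 1 red marker stands high while the other red markers lie at the bottom of the axis, which is 0 counts, and UGT2A1 reaches 32563 counts in erlotinib replicate 3.

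The retained sgRNAs are shown because they carried the members' counts in erlotinib. Those of the erlotinib-metabolizing group were given with its genes, those of CYP11B1 and UGT1A10 are not printed, and those with a close relative among the members come further on. The others follow, 5′ to 3′ in lower case.
CYP17A1 sgRNA a: agcagctctgagtcttgatc
CYP17A1 sgRNA b: gccattatctgagttcatct
CYP21A2 sgRNA: tgcctattacaaatgtatcc
CYP26A1 sgRNA: aaccttgcagatggtactgc
CYP26B1 sgRNA: gttctggcttccagtcgtcg
CYP2A13 sgRNA: ccctgtgttcaccattcact
CYP2A6 sgRNA: ccaggcgtggtattcagcaa
CYP2F1 sgRNA: tcccgaaattccgtagaatc
CYP2J2 sgRNA: ccaggattgattatgtcaag
CYP2S1 sgRNA: accggtgttcaccatctacc
CYP4A11 sgRNA: tgacatcctgaagccctatg
CYP4Z1 sgRNA: ttgtcactgacctgtccaac
UGT2A1 sgRNA: tgtagacctaccttaggtaa
UGT2B10 sgRNA: ctacattatctgagacaatg
UGT2B4 sgRNA: caagggagcagctgttagtt
UGT3A1 sgRNA a: atgtagactgcatgtcccat
UGT3A1 sgRNA b: gttgaacacccatcagtccc

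UGT2A1, a transferase known from the olfactory epithelium, had 297, 265 and 170 counts in DMSO and 0, 0 and 32563 in erlotinib. All 32563 counts came from a single sgRNA, the one printed, which had 0, 67 and 109 counts in DMSO and was the second most abundant of the 2183 sgRNAs in erlotinib replicate 3. The gene was not called (log2 fold change 3.53 ± 6.33 SE, adjusted p = 0.652), and without that library it was called lower (adjusted p = 0.00749). UGT3A1, which transfers N-acetylglucosamine, had 592, 28 and 0 counts in DMSO and 2, 2053 and 15 in erlotinib. Its sgRNA a held 2 and 2053 of these and its sgRNA b the 15. It was the only member with counts in all 3 erlotinib libraries, and it was not called (adjusted p = 0.682), nor was it in any fit that left out 1 library.

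UGT2B4, a bile acid transferase, had 86, 0 and 63 counts in DMSO and 1131, 0 and 0 in erlotinib, all from an sgRNA with 0 counts in each DMSO library (adjusted p = 0.595). UGT1A10, an intestinal form that conjugates estrogens, had 308, 275 and 219 counts in DMSO and 0, 0 and 672 in erlotinib. Both of its listed sgRNAs were retained there, and without erlotinib replicate 3 the gene was called lower (adjusted p = 0.00749). CYP17A1 was likewise retained by 2 sgRNAs in erlotinib replicate 3, with 1677 counts for a, which had 0 in DMSO, and 405 for b, which had 80, 42 and 31. Without that library it was called lower (adjusted p = 0.0146).

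CYP4A11, a fatty acid hydroxylase of kidney and liver, had 417, 315 and 92 counts in DMSO and 1042, 0 and 1 in erlotinib, from 1 sgRNA with 69, 37 and 0 counts in DMSO. The gene was called lower without erlotinib replicate 1 (adjusted p = 0.00731). CYP2A6, the nicotine hydroxylase, had 382, 31 and 49 counts in DMSO and 0, 883 and 210 in erlotinib. Different sgRNAs held the 883 and the 210, and the gene was not called (adjusted p = 0.792), nor was it in any fit that left out 1 library. CYP2A13, a nitrosamine-activating enzyme of the airway, had 148, 250 and 92 counts in DMSO and 0, 536 and 0 in erlotinib, and CYP26A1 had 327, 112 and 86 in DMSO and 0, 857 and 0 in erlotinib. Both were called lower without erlotinib replicate 2 (adjusted p = 0.00701 for each).

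CYP26B1 had 121, 78 and 17 counts in DMSO and 0, 0 and 474 in erlotinib, and CYP4Z1, a mammary member, had 615, 159 and 113 in DMSO and 0, 244 and 0 in erlotinib. CYP2F1, a lung enzyme, had 392, 117 and 82 counts in DMSO and 0, 130 and 0 in erlotinib. Without the library that held the counts each was called lower, at an adjusted p of 0.0214 for CYP26B1 and 0.00701 for CYP4Z1 and CYP2F1. CYP2F1 was also called lower with DESeq2's size factors (adjusted p = 0.0287). UGT2B10, which conjugates tertiary amines, had 398, 117 and 0 counts in DMSO and 59, 0 and 0 in erlotinib, and was called lower without erlotinib replicate 1 (adjusted p = 0.0474).

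In all, 22 of the 25 genes were not called, and 18 of the 22 were called lower once a single erlotinib library was left out. That library was erlotinib replicate 1 for 8 genes, replicate 2 for 5 and replicate 3 for 5. In each of the 18 it held all or nearly all of the gene's erlotinib counts. Leaving it out takes the retained counts away, so these calls are no separate support for a fall. The same share over all symbols was not computed. CYP1B1, CYP2A6, UGT2B4 and UGT3A1 were the 4 that were not called without any 1 library. The fitted log2 fold changes of the 22 ran from -5.59 for CYP1A2 to 3.53 for UGT2A1, with 9 above 0 and 13 below. Under 5 other scalings, DESeq2's widely spread size factors among them, the sign changed for 7 of the 9 and for 9 of the 13. Among those above 0 it held in each scaling for UGT2A1 and UGT2B4 only. None of the 22 was called higher under these scalings or with 1 library left out.

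Close relatives in these families gave sgRNAs of nearly the same sequence. Within 2 mismatches of an sgRNA listed for another symbol lay 49 of the 362 member sgRNAs (13.5%), against 1.68% of all sgRNAs with a target. Within 1 mismatch the shares were 5.25% and 0.890%. The members formed 27 such pairs among themselves, of 48 sgRNAs and 22 genes, and 10 of the 27 differed at 1 position. An sgRNA can also cut a near match, and how the reads were assigned between near matches is not given in the sources used here.

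A set of 3 sgRNAs against the CYP4F genes, whose products oxidize leukotrienes and fatty acids, differed only at the positions in capitals. They are shown because all 3 were retained in erlotinib.
CYP4F12 sgRNA: gtcagctgccattgCaccCa
CYP4F2 sgRNA: gtcagctgccattgCaccAa
CYP4F3 sgRNA: gtcagctgccattgTaccAa
Counted from 1 at the 5′ end, the change from CYP4F2 to CYP4F12 is A19C, from CYP4F2 to CYP4F3 it is C15T, and from CYP4F12 to CYP4F3 the changes are C15T and C19A. The sgRNA listed for CYP4F12 had 0, 48 and 25 counts in DMSO and 1617, 0 and 0 in erlotinib. That of CYP4F2 had 40, 0 and 46 counts in DMSO and 0, 0 and 2163 in erlotinib. The CYP4F3 sgRNA had 135, 103 and 75 counts in DMSO and 32, 0 and 1 in erlotinib, so its small counts lay in the same libraries in which its relatives were abundant.

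At the gene level CYP4F2 had 42, 110 and 182 counts in DMSO, CYP4F12 had 318, 171 and 95, and CYP4F3 had 340, 213 and 131, and none of them was called (adjusted p = 0.889, 0.855 and 0.0613). CYP4F3 was called lower with the likelihood ratio test (adjusted p = 0.0230), DESeq2's Wald test (adjusted p = 0.00731) and upper-quartile factors on summed counts (adjusted p = 0.0339), whereas edgeR run on DESeq2's size factors gave a log2 fold change of 0.49 (adjusted p = 0.887). Without erlotinib replicate 3 CYP4F2 was called lower (adjusted p = 0.00939), and without erlotinib replicate 1 CYP4F12 and CYP4F3 were (adjusted p = 0.00731 for each).

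A further 3 pairs held counts in erlotinib, and capitals again mark the positions at which the members of a pair differ.
CYP2A6 sgRNA: cagcccttgcagcaactGaa
CYP2A7 sgRNA: cagcccttgcagcaactTaa
CYP4A11 sgRNA: CtgtaggaAccatgggattt
CYP4A22 sgRNA: TtgtaggaTccatgggattt
UGT2B15 sgRNA: accagccaaacccCtgccta
UGT2B17 sgRNA: accagccaaacccTtgccta
The CYP2A6 sgRNA had 73, 31 and 0 counts in DMSO and 0, 883 and 0 in erlotinib. Its relative of CYP2A7, a gene with little known activity, had 92, 35 and 0 in DMSO and 0 in erlotinib, and the change between them is G18T. The CYP4A22 sgRNA had 0 counts in DMSO and 2, 3819 and 0 in erlotinib, while its relative of CYP4A11, which differs by C1T and A9T, had 0, 224 and 12 in DMSO and 0 in erlotinib. Those 3819 counts were the largest of the members in erlotinib replicate 2. CYP4A22 as a gene had 191, 103 and 173 counts in DMSO and was not called (adjusted p = 0.575) unless erlotinib replicate 2 was left out (adjusted p = 0.0101). The UGT2B17 sgRNA, of the main testosterone transferase, had 0, 25 and 84 counts in DMSO and 200, 0 and 0 in erlotinib, and that of UGT2B15, which differs by C14T, had 0, 0 and 20 in DMSO and 0 in erlotinib. UGT2B17 summed to 229, 25 and 113 counts in DMSO, was not called (adjusted p = 0.570), and was called lower without erlotinib replicate 1 (adjusted p = 0.00920).

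Of the 27 member pairs, 6 held a count in erlotinib and 2, both with CYP4F3, held counts of both sgRNAs in the same erlotinib library. Over all sgRNAs with a target there were 1200 such pairs, of which 158 and 18 did. With the near-identical sgRNAs left out, a choice made after the counts were seen, the members' detection was 38.9% in DMSO and 2.77% in erlotinib. Over all sgRNAs with a target, near-identical ones kept, it was 35.7% and 1.95%. Of the members, 43 lie in 11 runs of neighbouring genes in the RefSeq annotation of the human genome, with at most 5 other genes between neighbours. The largest run holds 10 UGT2A and UGT2B genes, of which 4 had a count in erlotinib, and the run of 6 genes from CYP2A6 to CYP2S1 also had 4.

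At the level of single sgRNAs, 263 of the members' 362 were tested, and 0 passed an adjusted p under 0.05 in edgeR's quasi-likelihood test, where 0% of all 74555 tested did. The smallest adjusted p among the members was 0.0998. At an unadjusted p under 0.05, 94 were lower (35.7%, against 31.2% of all tested) and 4 of 263 were higher, against 521 of all 74555. The likelihood ratio test gave 111 lower (42.2%, against 36.6% of all tested) and 4 higher (1.52%, against 0.84%) at the same threshold. DESeq2's Wald test called 63 lower after adjustment, or 24.0% of the members tested against 18.8% of all. The quasi-likelihood test called 57 lower without DMSO replicate 2 (24.8%, against 19.3% of all tested) and 58 without DMSO replicate 3 (26.4%, against 22.9%). Without DMSO replicate 3 it also called 3 member sgRNAs higher (1.36%, against 0.486% of all tested), those of CYP17A1, CYP1B1 and UGT2B4 that had a count in 1 erlotinib library and none in DMSO. The unadjusted count fell to 55, 57 and 51 without erlotinib replicates 1 to 3. These were 21.0%, 21.8% and 19.6% of the members tested, against 17.2%, 17.7% and 15.3% of all tested.

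Electron donors, inducing receptors and sugar donors that serve these enzymes were listed as 20 genes. Of these, 16 were called lower (80.0%, against 66.1% of all symbols), 4 were not called and 0 were higher. At 0 in every erlotinib library were 18 of the 20, where 75.6% of all symbols were. POR, the reductase that feeds electrons to microsomal P450 enzymes, had 259, 35 and 15 counts in DMSO and 0 in erlotinib, at least 21.2-fold lower (adjusted p = 0.0106), a call lost without DMSO replicate 1 (adjusted p = 0.0579). AHR, the receptor that induces CYP1A1, had 333, 229 and 147 counts in DMSO and 0 in erlotinib, at least 67.6-fold lower (adjusted p = 0.00503). NR1I2, the receptor that induces CYP3A4, had 379, 78 and 15 counts in DMSO and 0 in erlotinib (adjusted p = 0.00705).

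UGDH, which makes the UDP-glucuronic acid that UGT enzymes use, had 365, 57 and 234 counts in DMSO and 0 in erlotinib, at least 63.9-fold lower (adjusted p = 0.00503). Counts in erlotinib were seen for FDX1L, a mitochondrial ferredoxin, with 0, 263 and 7 in DMSO and 1349, 0 and 0 in erlotinib (adjusted p = 0.770), and for SLC35D1, which carries UDP-glucuronic acid into the endoplasmic reticulum. SLC35D1 had 245, 33 and 47 counts in DMSO and 71, 0 and 0 in erlotinib (adjusted p = 0.318), and was called lower without erlotinib replicate 1 (adjusted p = 0.0113). Of the 16 calls, 12 held in each fit that left out 1 library, a share not given here for all symbols. The exceptions beside POR were FDX1, AHRR and NR1I3, each found in 2 DMSO libraries.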

How the data were processed

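The deposited file of the authors holds whole-number read counts of 107237 sgRNAs of 20 bases in 6 libraries (3 DMSO, 3 erlotinib), with no filter or normalization applied, and its values were used as counts. The program that counted the reads and any mismatch allowance are not given in the sources used here, and no genome build is named, so no coordinates are given. Groups and replicate numbers came from the labels, although some label fields name RNA or a cell line ERL and the design text speaks of mouse models, and the protocol text of the screen was followed. Members and gene lists were chosen with earlier results of these data known, and no test was run over the members as a set.

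The 993 non-targeting sgRNAs were removed. Counts were summed per target symbol and fitted in R 4.3.3 with edgeR 4.0.16 (quasi-likelihood test, erlotinib against DMSO, group as the only term, upper-quartile factors at the 0.99 quantile computed on the sgRNA counts). The quantile and edgeR on sgRNA counts follow the study's methods, but the main test and filter do not. The study's likelihood ratio test was run as an alternative, and its filter of low counts against the library median was not applied. Symbols with at least 1 count were tested, and a call needed a Benjamini-Hochberg adjusted p under 0.05 over all 20409. CPM is the count scaled to a library total of 1000000. Before use the fits were run on simulated counts with known changes. The simulated spread between libraries (dispersion) was smaller than that fitted here, which was 3.11 for symbols and 9.74 for sgRNAs. How the fits perform at the spread of these counts was therefore not tested. Alternatives were other scalings and filters, the likelihood ratio test, DESeq2 1.42.0, the replicate number as a block and leaving out each library. Upper-quartile factors on summed counts and leaving out near-identical sgRNAs were added after the counts were seen. Tables and figures used Python 3.11.15 with pandas 2.3.3, matplotlib 3.10.9, numpy 2.4.6 and scipy 1.17.1.

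Genes were named by rule: the erlotinib-metabolizing group, every member with a count in erlotinib, the 8 lower members with the smallest p, the 5 members highest and the 5 lowest in DMSO, and POR, AHR, NR1I2, UGDH and any donor or regulator with a count in erlotinib. Further members were named after their values were seen, to account for each role and each call lost. The values of 1 member and some sequences are not reported here. Otherwise, sequences are printed for the sgRNAs with a count of the erlotinib-metabolizing group and for member sgRNAs with a count in erlotinib. Those of UGT1A1, CYP2A7, CYP4A11 and UGT2B15 beside them were added after the counts were seen. All 68 symbols matched a RefSeq gene table (GRCh38.p14), which was used only for gene neighbourhood.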

Additional observations from a re-analysis of the deposited data

How the results depend on the processing

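The number of members called lower at the gene level was 40. With 1 library left out it ran from 32 (47.8%, against 58.8% of all symbols) to 43 (64.2%, against 59.2%). Over the other scalings, filters and tests it lay between 33 and 46. The 33 came with filterByExpr (61.1% of members tested, against 71.8% of all symbols). The 46 came with the likelihood ratio test (68.7%, against 74.1%). For the electron donors and regulators the number was 16 of 20. It was 12 to 16 with 1 library left out, where 56.0% to 60.9% of all symbols were lower. With filterByExpr it was 13 of 15 tested and with the likelihood ratio test 18 of 20, beside the shares of all symbols just given. The median log2 fold change of all symbols ran from -11.28 to -9.32 over the scalings. With the replicate number as a block, 0 members, 0 donors and regulators and 0 of all symbols were called (smallest adjusted p = 0.183), and 0 member sgRNAs were lower at an unadjusted p under 0.05. Same-numbered libraries share a forward primer, and they deviated together with r of -0.0017 to 0.0105 across genes. Because 75.6% of all symbols were at 0 in every erlotinib library, this correlation cannot settle whether the numbers pair the libraries. The block also uses up residual degrees of freedom. At the sgRNA level, the adjusted count of 0 lower became 71 with counts required in at least 2 libraries (51.8%, against 49.8% of all tested). It became 27 with filterByExpr (60.0%, against 76.0%) and 63 with DESeq2's Wald test (24.0%, against 18.8%). Fewer sgRNAs were tested in the first 2. With 1 library left out this count ran from 0 to 58 (26.4%, against 22.9%). The adjusted count of member sgRNAs called higher was 0, and 3 without DMSO replicate 3. The unadjusted count of 94 lower became 27 with filterByExpr (60.0%, against 76.1% of all tested). With 1 library left out it ran from 51 (19.6%, against 15.3%) to 82 (35.7%, against 31.6%). The members' DMSO detection was 36.4% at 10 counts or more, beside 39.2% at 1 count or more. The share over all targets at 10 counts is not given here. Causes of these shifts beyond the number tested were not tested. The alternative that leaves out identical sequences listed for several symbols was not run, since every listed sequence is unique.

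Log2 fold changes of uncalled genes changed sign as follows. Those under DESeq2's size factors come from factors of 0.0415 and 18.8 for erlotinib replicates 1 and 2. DESeq2's size factors gave 4.40 for CYP3A5, -1.20 for CYP2A6, 5.36 for CYP4A11, -0.56 for CYP4A22, 0.49 for CYP4F3, 2.37 for CYP11B1, -2.84 for CYP26A1, 0.63 for CYP26B1, 1.88 for UGT2B10, 3.84 for UGT2B17, -1.45 for UGT3A1 and 2.64 for SLC35D1. TMM factors gave -0.37 for CYP2A6, -0.42 for CYP4F2 and -0.99 for CYP26A1. Library totals gave 0.50 for CYP1B1, 0.56 for CYP2A13, 0.81 for CYP4A11 and 0.93 for CYP26B1. Non-targeting totals gave 0.22 for CYP1B1, 0.27 for CYP2A13 and 1.05 for CYP26B1. Upper-quartile factors on summed counts gave -0.75 for CYP2A6, -0.90 for CYP4F2, -0.89 for CYP4F12, -0.11 for CYP17A1, -1.34 for CYP26A1 and -0.36 for FDX1L. The replicate block gave -0.53 for CYP2A6, -6.59 for CYP4A22, -7.28 for CYP4F2, -8.94 for CYP4F12, -7.78 for CYP17A1, -8.99 for CYP26A1, -9.43 for UGT2A1, -0.84 for UGT2B4 and -6.65 for FDX1L. With 1 library left out the values ran from -2.16 to 1.42 for CYP2A6, -10.11 to 0.11 for CYP4A11, -8.24 to 2.88 for CYP4A22, -10.46 to 1.07 for CYP4F2, -11.27 to 1.25 for CYP4F12, -9.71 to 1.76 for CYP17A1, -11.11 to 0.77 for CYP26A1, -11.33 to 4.11 for UGT2A1, -9.38 to 2.62 for UGT2B4, -5.83 to 4.19 for UGT3A1 and -10.44 to 5.11 for FDX1L.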
